A study of Mus musculus with 8 samples.

Results

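The cytochrome P450 genes of families 2, 3 and 4 were taken from the mouse gene annotation by symbol: protein-coding genes whose symbol starts with Cyp2, Cyp3 or Cyp4 followed by a letter. The rule gave 77 genes on 9 chromosomes, and all 77 had a replication timing score at their midpoint, among 21523 protein-coding genes with a score. Of these, 68 lay in 7 clusters, where a cluster is a run of at least 3 members on 1 chromosome with midpoints no more than 1 Mb apart, and 9 lay outside such a run. The rule used symbols and no measured value.

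P450 enzymes are haem proteins that insert an oxygen atom into lipophilic substrates, with electrons supplied by NADPH-P450 reductase. Families 2 and 3 act mainly on drugs, plant compounds, steroids and polyunsaturated fatty acids, and family 4 hydroxylates fatty acids at or near their terminal carbon. Most members are used in liver, kidney, gut, lung or skin, and the subfamilies expanded by tandem duplication, so that near copies lie side by side.

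The cells were mouse embryonic stem cells (mESC), a pluripotent cell type that is not a site of drug metabolism. The control group is labelled as control only, and the dTAG group was collected 2 days after treatment with dTAG, a small molecule that directs a tagged protein, here the transcription factor YY1, to degradation. The labels give no line, tag, clone or solvent, and refer to an earlier publication for culture and treatment. Each group had 2 replicates, and an early and a late S phase fraction of each made 1 timing profile, so 8 samples stand behind 4 profiles, control 1 and 2 and dTAG 1 and 2. Nothing in the labels says that replicates were separate cultures, so each p-value speaks only of the spread among these 4 profiles, which may be technical.

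A timing score is a signed number for a position every 5 kb, and high values were read as early replication, although no source used here gives its direction, formula or log base. This reading was checked on gene groups of known behaviour: 97.9% of 95 ribosomal protein genes, used in every cell, scored above 0 in all 4 profiles, against 30.2% of 1105 olfactory receptor genes. All 8 stem cell marker genes also did, between Nanog at a mean of 3.20 and Esrrb at 3.92. For dTAG replicate 1 the sample titles and the fraction labels disagree on which fraction is early. The deposited scores of replicate 1 and replicate 2 have mirrored distributions, with means of 0.20 and -0.20 over all positions in both groups, so the difference between dTAG and control inside each replicate number stands beside the pooled one. The read depth behind the scores is unknown, and RNA and YY1 protein were not analysed here.

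The P450 clusters were spread over most of the timing scale, and each kept nearly the same place in every profile. The Cyp4f cluster on chromosome 17 was the earliest, the Cyp2d cluster on chromosome 15 lay near the middle of all genes, the Cyp2a/b/f/g/s/t cluster on chromosome 7 somewhat below it, and the Cyp4a/b/x cluster on chromosome 4, the Cyp2c cluster on chromosome 19 and the Cyp3a cluster on chromosome 5 lay among the later genes. The Cyp2j cluster, also on chromosome 4, was the latest. With dTAG, 5 of the 7 clusters had mean scores at least 0.28 score units higher than the controls, whereas the Cyp4a/b/x and Cyp2j clusters differed by 0.09 and -0.09. The Cyp4f difference came from replicate 2, and without control 2 the Cyp4f, Cyp2c and Cyp3a clusters alone reached 0.28, with Cyp2d at 0.26 and the chromosome 7 cluster at 0.10. The median difference of all genes was then -0.22. After subtracting that median, the 5 clusters ran from 0.32 for the chromosome 7 cluster to 0.56 for Cyp4f. No P450 gene passed the main test of dTAG against control.

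The mean score over the 8 Cyp4f genes was 4.14 ± 0.32 (SD over the 4 profiles, as in the next sentences). The 8 Cyp2d genes had a mean of 3.25 ± 0.23, the 13 genes of the chromosome 7 cluster 2.24 ± 0.25, and the 10 genes of the Cyp4a/b/x cluster 0.95 ± 0.11. The 14 Cyp2c genes had a mean of 0.11 ± 0.19 and the 8 Cyp3a genes 0.01 ± 0.35. The 7 Cyp2j genes had a mean of -3.47 ± 0.08. As the mean percentile of their members among all scored genes, where 0 is the latest, Cyp4f stood at 76.4, Cyp2d at 54.7, the chromosome 7 cluster at 41.8, Cyp4a/b/x at 26.3, Cyp3a at 22.2, Cyp2c at 21.9 and Cyp2j at 4.54.

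**Figure D1:**
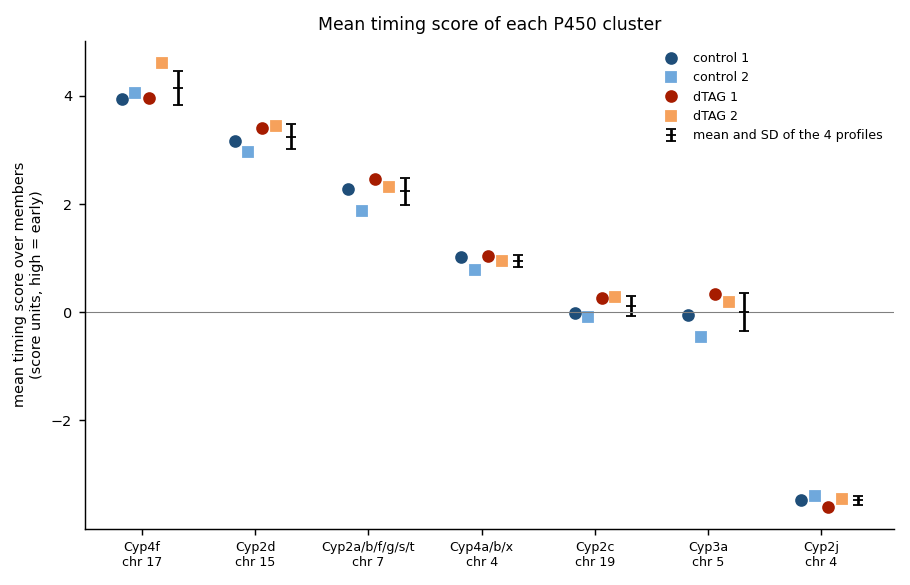
Mean timing score over the members of each P450 cluster (vertical axis, score units, high read as early) in each of the 4 profiles (coloured points) with the mean and SD of the 4 profiles (black). Cyp4f is the highest cluster and Cyp2j, between -3.59 and -3.39, the lowest in every profile, while Cyp2c and Cyp3a overlap.

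Neighbouring clusters in this order were compared within each profile. Cyp4f exceeded Cyp2d by 0.89 ± 0.28 score units (SD of the difference, n = 4), Cyp2d exceeded the chromosome 7 cluster by 1.01 ± 0.12, and that cluster exceeded Cyp4a/b/x by 1.29 ± 0.14. Cyp4a/b/x exceeded Cyp2c by 0.84 ± 0.16, and Cyp3a exceeded Cyp2j by 3.48 ± 0.42. Each of these 5 differences had the same sign in all 4 profiles, and the exact 2-sided sign-flip permutation test gave p = 0.13 for each, the smallest that 4 profiles allow (0.15 after Benjamini-Hochberg adjustment over 6 pairs). Cyp2c and Cyp3a differed by 0.10 ± 0.19, with the order turned in dTAG 1, and were not separated (exact permutation p = 0.375, adjusted 0.375).

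Over all 77 genes the mean score was 1.31 in control 1, 1.09 in control 2, 1.44 in dTAG 1 and 1.45 in dTAG 2, below the mean of the other protein-coding genes in each profile, by 0.86 on average (SD 0.28, exact permutation p = 0.13). The 22 P450 genes of other families, mostly single genes of steroid, bile acid, retinoid and vitamin D metabolism, averaged 2.66, and the members lay 1.34 ± 0.27 below them. The 52 Serpina and Serpinb genes, another set of clustered families with many liver or skin genes, averaged -1.45, and the members lay 2.77 ± 0.38 above them (exact permutation p = 0.13 for each). Of the members, 55 scored above 0 in all 4 profiles (71.4%, against 77.5% of all genes) and 20 scored below 0 in all 4 (26.0%, against 17.9%). The 20 late ones comprised all 7 Cyp2j genes, 7 of the Cyp2c genes, 5 of the Cyp3a genes and Cyp4a12a. The remaining 2 members, Cyp4a12b and Cyp2r1, changed sign between profiles.

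Levels also differed between P450 genes on the same chromosome. The Cyp4a/b/x cluster starts 18.5 Mb from the end of the Cyp2j cluster on chromosome 4 and scored 4.42 ± 0.19 higher. Cyp2c23, a renal arachidonic acid epoxygenase, lies 3.85 Mb from the Cyp2c cluster and scored 4.40 ± 0.45 higher than its mean. Cyp3a13, the Cyp3a gene of the gut, lies 7.46 Mb from the other Cyp3a genes and scored 3.66 ± 0.51 higher than their mean. Cyp4f18, which lies on another chromosome than the Cyp4f cluster, was in contrast close to its level, at a mean of 3.94 against 4.14. Each of these 3 differences had the same sign in all 4 profiles (exact permutation p = 0.13).

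Within a cluster the scores followed position along the chromosome, and in Cyp2c, Cyp3a, Cyp2d and the chromosome 7 cluster they dipped to a later floor between earlier flanks. Cyp4a/b/x also dipped in its middle. Beyond Cyp4x1 the averaged profile reached 3.02 within 1 Mb, but positions there averaged -1.31. In these smoothed profiles adjacent members share reads, so members of a cluster are not independent measurements. The spread within a cluster differed widely: the range of member means was 4.69 score units in Cyp3a, 4.45 in Cyp2c, 3.85 in the chromosome 7 cluster and 2.60 in Cyp4a/b/x, but 1.60 in Cyp2j, 1.58 in Cyp2d and 0.49 in Cyp4f.

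**Figure D2:**
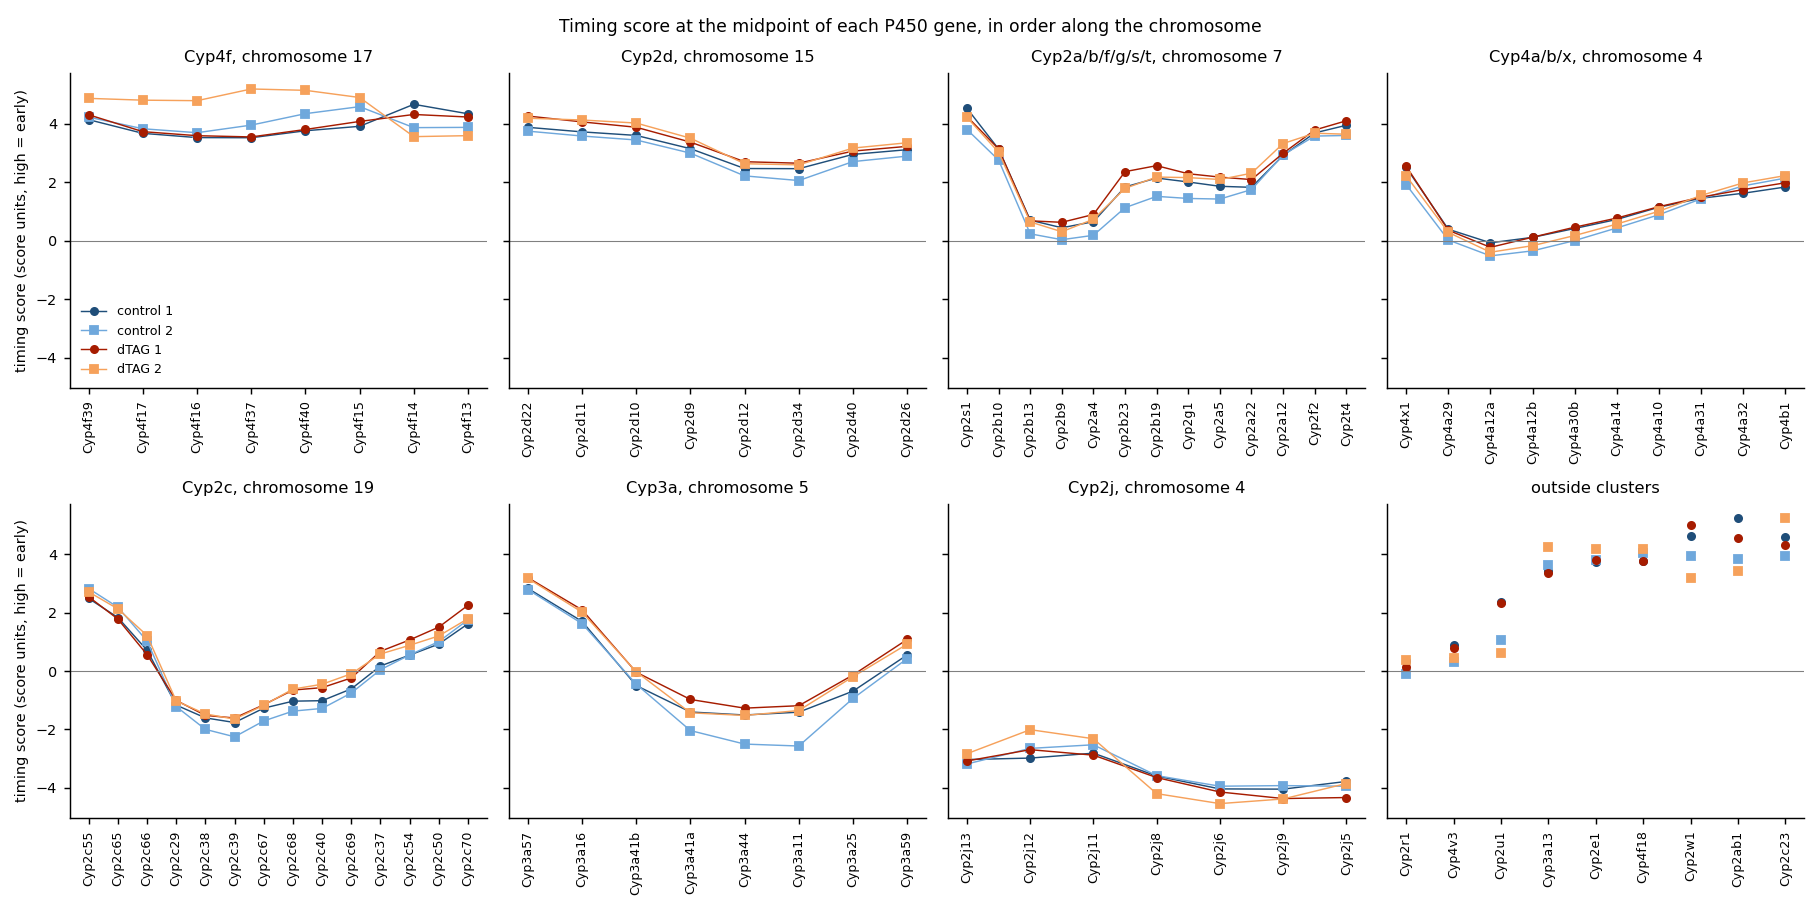
Timing score (vertical axis, score units, high read as early) at the midpoint of each of the 77 P450 genes in the 4 profiles, in order along the chromosome for the 7 clusters and by mean score for the 9 genes outside clusters. The Cyp2c, Cyp3a, Cyp2a/b/f/g/s/t, Cyp4a/b/x and, less deeply, Cyp2d panels dip in the middle, the Cyp4f panel stays above 3.5, and the Cyp2j panel stays below -2.

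The Cyp2c cluster spans 1146 kb and encodes hepatic and intestinal enzymes of drug and arachidonic acid metabolism. At its edge Cyp2c55, a gene of the large intestine (GRCm38.p6, chr19:39006940-39042690), scored 2.48 in control 1, 2.82 in control 2, 2.54 in dTAG 1 and 2.71 in dTAG 2. Cyp2c39, the lowest member (chr19:39347346-39569568), scored -1.76, -2.25, -1.61 and -1.65 in the same order. Its annotated span contains Cyp2c38, and its midpoint, where the score was read, lies inside that gene. The gene at the edge scored above 0 and the gene at the floor below 0 in every profile. Among all scored genes Cyp2c55 stood at a mean percentile of 40.2 and Cyp2c39 at 11.6. The floor of the averaged profile was -2.02, 485 kb from the first member. Cyp2c29, a liver enzyme inducible by phenobarbital, lay on the same floor at -1.17, -1.22, -1.01 and -1.02. Genes within 1 Mb outside the cluster averaged 2.80 (24 genes).

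The Cyp3a cluster spans 729 kb and had the same shape. Cyp3a57, at its edge (chr5:145345149-145390926), scored 2.83, 2.79, 3.20 and 3.17 in control 1, control 2, dTAG 1 and dTAG 2. Cyp3a44, the lowest member (chr5:145773983-145805891), scored -1.50, -2.50, -1.27 and -1.52. Cyp3a11, the main drug-metabolising Cyp3a enzyme of mouse liver (chr5:145854607-145879854), lay beside it at -1.41, -2.57, -1.19 and -1.35. Control 2 was the lowest profile at this floor, well under the other 3 profiles, which lay close together. The floor of the averaged profile was -1.76, against a mean of 3.30 in 40 flanking genes.

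The chromosome 7 cluster is the longest, at 1347 kb, and holds 6 subfamilies. Cyp2s1, an epithelial enzyme induced by dioxin (chr7:25802469-25816525), was its highest member at 4.53, 3.81, 4.25 and 4.22. Cyp2b10, the phenobarbital-induced liver enzyme that reports activity of the receptor CAR (chr7:25897658-25926624), scored 3.14, 2.76, 3.14 and 3.03. Cyp2b9, a female-biased liver gene and near copy of Cyp2b13, was the lowest at 0.44, 0.04, 0.63 and 0.31. Members of the Cyp2b subfamily thus lay both towards the higher-scoring edge and on the floor, 0.30 in the averaged profile. The 5 other protein-coding genes inside the cluster, vomeronasal receptors Vmn1r184 and Vmn1r185 and the oocyte genes Nlrp9c, Nlrp4a and Nlrp9a, averaged 0.84, and 69 flanking genes averaged 4.08.

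In the Cyp4a/b/x cluster, 516 kb long, Cyp4x1, a gene of brain (chr4:115106323-115134079), scored 2.51, 1.92, 2.55 and 2.22. Cyp4a12a, a male-biased renal fatty acid hydroxylase, was the lowest at -0.07, -0.52, -0.23 and -0.39. The score then climbed along the array through Cyp4a14 at 0.73, 0.44, 0.78 and 0.57 and Cyp4a10 at 1.15, 0.89, 1.17 and 1.01, both fatty acid hydroxylases induced through the receptor PPARA. It reached 1.84, 2.14, 1.98 and 2.23 at Cyp4b1, an enzyme of lung that activates furan toxins. The cluster lies beside a boundary: positions within 1 Mb averaged -1.31 on the Cyp4x1 side and 3.97 on the Cyp4b1 side. The Cyp4x1 side was not late throughout, as the averaged profile reached 3.02 there.

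**Figure D3:**
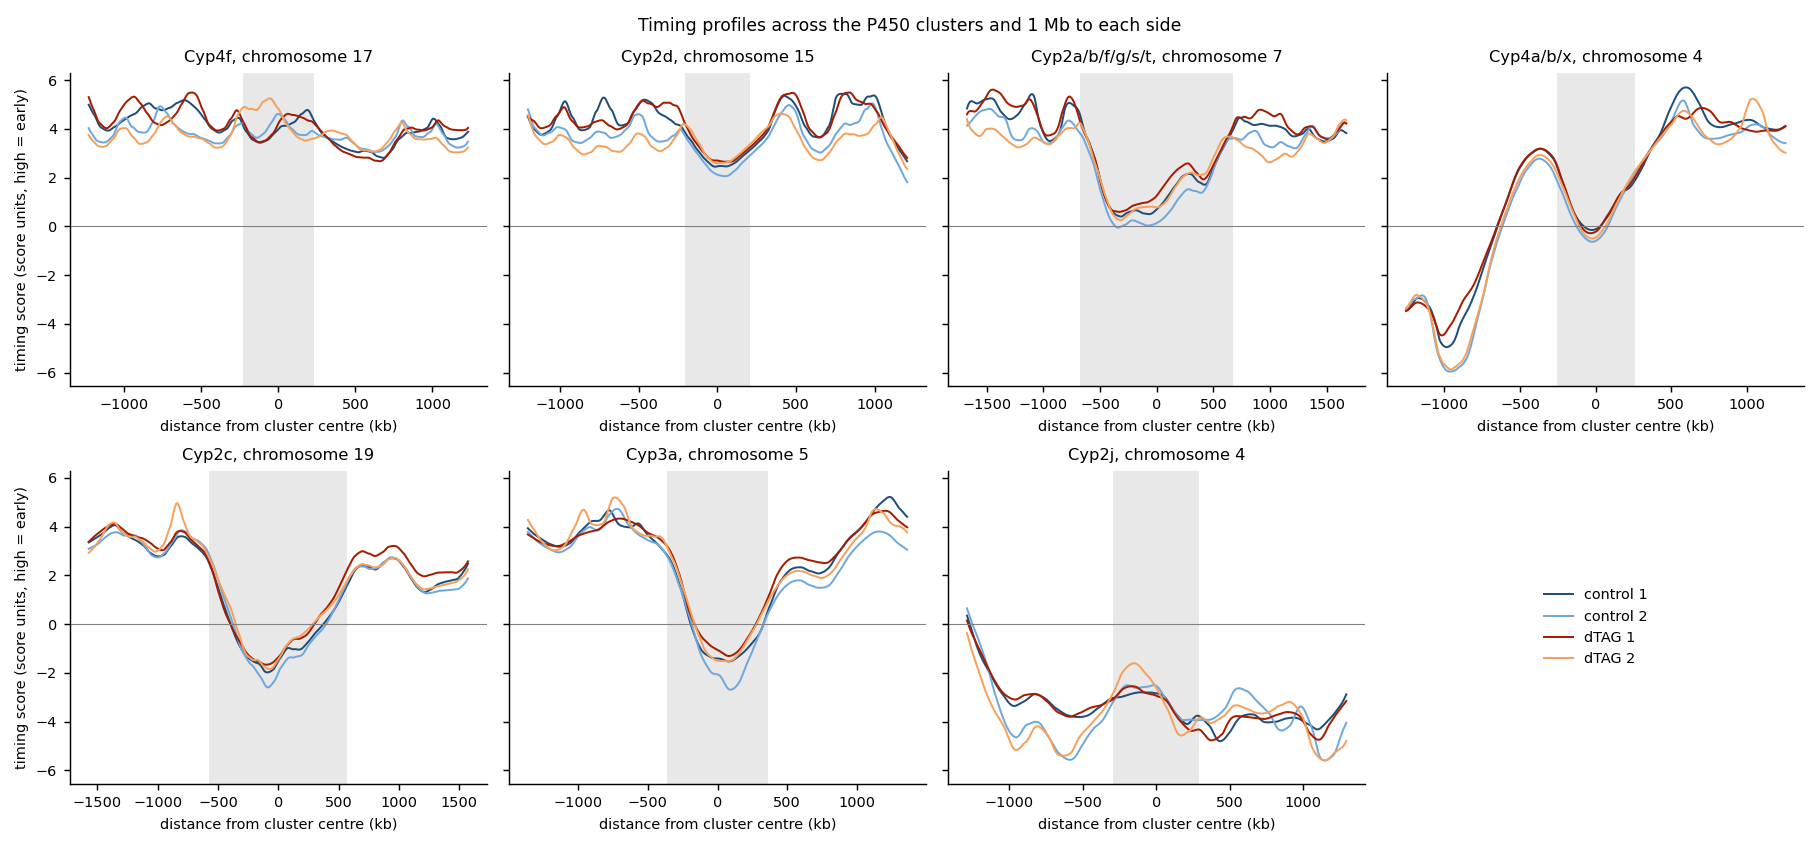
Timing score (vertical axis, score units, high read as early) in the 4 profiles against distance from the centre of each P450 cluster in kb, to 1 Mb beyond the outermost member midpoints, with the cluster shaded. Cyp2c and Cyp3a fill late troughs with earlier flanks, Cyp4f has no trough, Cyp2j lies in a late region that extends beyond it, and in the Cyp2d panel both dTAG lines run above both control lines across the whole shaded span.

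The Cyp2d cluster, 417 kb long, holds the relatives of the human debrisoquine hydroxylase. Cyp2d22, often treated as the mouse counterpart of that enzyme (chr15:82370527-82380260), scored 3.88, 3.75, 4.27 and 4.19. Cyp2d34, at the floor, scored 2.47, 2.06, 2.65 and 2.60. All 8 members scored above 2 in every profile, though the cluster dips below its 49 flanking genes, which averaged 4.12. In the Cyp4f cluster, 463 kb long and of fatty acid and leukotriene hydroxylases, Cyp4f39, which makes ultra-long omega-hydroxy fatty acids of the skin barrier, was the highest at 4.14, 4.23, 4.31 and 4.87. Cyp4f16 was the lowest at 3.53, 3.70, 3.59 and 4.79. The 4 zinc finger genes inside it, Zfp871, Zfp811, Zfp799 and Zfp870, averaged 4.14, the same as the members.

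The Cyp2j cluster, 586 kb long, encodes epoxygenases of arachidonic acid. Its highest member, Cyp2j12, scored -2.98, -2.65, -2.69 and -2.01, and its lowest, Cyp2j9, scored -4.04, -3.92, -4.36 and -4.38. Cyp2j5, an epoxygenase of kidney and liver (chr4:96627432-96664171), scored -3.78, -3.94, -4.33 and -3.85. No member came near 0 in any profile. The surroundings were late and gene-poor as well: 3 protein-coding genes lay within 1 Mb outside the cluster, with a mean of -4.13, and members had between 5 and 8 protein-coding genes within 500 kb.

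Gene density differed between the clusters along with their level. The median number of protein-coding genes within 500 kb was 25 for Cyp2d members, 23.5 for Cyp4f, 20 for the chromosome 7 cluster and for Cyp4a/b/x, 15 for Cyp3a, 10 for Cyp2c and 7 for Cyp2j. Across the 77 members the mean score and this number correlated at r = 0.74, against r = 0.26 across all scored genes. These are descriptions, because neighbouring genes share both their score and their neighbours.

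Of the 9 members outside clusters, 6 scored above 3 on average. Cyp2e1, which oxidises ethanol and small solvents in liver (chr7:140763819-140774990), scored 3.75, 3.80, 3.80 and 4.18. Cyp3a13 scored 3.41, 3.64, 3.37 and 4.26, and Cyp4f18, a leukotriene hydroxylase of neutrophils, 3.78, 4.04, 3.77 and 4.16. These 3 genes scored above 3 in every profile and were highest in dTAG 2. In each of them both replicate 2 profiles stood above both replicate 1 profiles, though in Cyp2e1 control 2 and dTAG 1 were nearly equal (3.804 and 3.801). Cyp2c23 scored 4.58, 3.92, 4.32 and 5.24. Cyp2ab1, for which no function is given here, scored 5.24, 3.83, 4.56 and 3.43, and Cyp2w1, a gene of fetal gut and colon tumours, 4.63, 3.93, 5.01 and 3.19. In the last 2 genes the replicate numbers stood further apart than the groups.

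The other 3 were later. Cyp2r1, the vitamin D 25-hydroxylase (chr7:114550123-114563048), scored 0.34, -0.09, 0.14 and 0.37. Cyp4v3, a fatty acid hydroxylase needed in the retina (chr8:45305801-45333163), scored 0.90, 0.32, 0.79 and 0.44. Cyp2u1, a hydroxylase of long-chain fatty acids in brain and thymus (chr3:131290491-131304157), scored 2.37, 1.07, 2.31 and 0.61, again split by replicate number and not by group. Cyp2r1 and Cyp4v3 are used in many tissues. Their means, 0.19 and 0.61, were later than those of the Cyp2d and Cyp4f genes. They were earlier than those of other genes of liver, Cyp2c29 at -1.10, Cyp3a11 at -1.63 and Cyp2j5 at -3.98.

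The second comparison, dTAG against control, addresses where replication timing depends on YY1. limma, fitted over all 21523 genes with Benjamini-Hochberg adjustment at 0.05, called 0 of the 77 members and 0 genes in all (0.0%). At an unadjusted p under 0.05 it had 0 members and 171 genes (0.79%). With the replicate number as a block it called 0 members and 0 genes, with 10 members (13.0%) and 1653 genes (7.68%) at an unadjusted p under 0.05. With the block and a trended robust variance it called 2 members, Cyp2b23 (adjusted p = 0.025) and Cyp2b19 (adjusted p = 0.034), which is 2.6% of members against 2.6% of all genes. Both were higher with dTAG, as were 158 of the 559 genes called. At an unadjusted p under 0.05 this setting had 25 members (32.5%), all higher with dTAG, and 2772 genes (12.9%). Adjacent members share reads, so these 25 are not independent. With 2 profiles against 2, an exact permutation test of a cluster mean cannot go below p = 0.33, which Cyp2d, Cyp2c, Cyp3a and the chromosome 7 cluster reached, so what follows is a description.

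The members lay higher with dTAG more often than other genes did. The median dTAG minus control difference was 0.29 score units over the members and -0.02 over all genes. Within replicate 1 the medians were 0.11 and 0.01, and within replicate 2 they were 0.39 and -0.08. In both replicate numbers 54 members were higher with dTAG (70.1%, against 25.3% of all genes) and 8 were lower (10.4%, against 30.6%). The 2 dTAG profiles exceeded the 2 controls without overlap in 33 members, or 42.9%, against 10.0% of all genes, and lay below them in 3, or 3.9%, against 8.42%. With a gap of at least 0.25 between the groups the counts were 14 above (18.2%, against 1.68%) and 1 below (1.3%, against 2.46%). With a gap of at least 0.5 they were 0 above, against 0.325%, and 0 below, against 0.776%. Without control 1 the count with no minimum gap was 53 members, but 37.3% of all genes then met it. All 33 members above both controls lay in clusters, so these counts rest on a small number of regions.

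**Figure D4:**
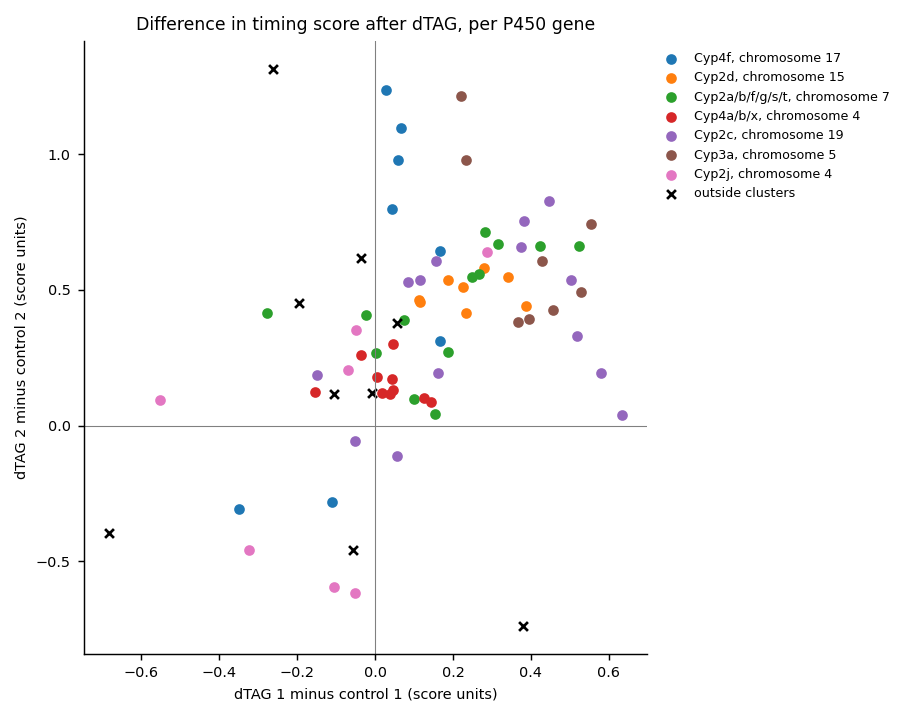
Difference in timing score with dTAG for each of the 77 P450 genes, within replicate 1 (horizontal axis) and within replicate 2 (vertical axis), in score units and coloured by cluster. Points in the upper right, 54 genes, were higher with dTAG in both replicate numbers; all 8 Cyp3a and all 8 Cyp2d genes are among them.

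With all 4 profiles Cyp3a had the highest cluster difference; without dTAG 1 Cyp4f stood above it (0.61 against 0.45), as it did without control 2 (0.34 against 0.32). Its mean was -0.05 in control 1, -0.46 in control 2, 0.35 in dTAG 1 and 0.20 in dTAG 2, a difference of 0.53, with 0.40 within replicate 1 and 0.65 within replicate 2. The groups did not overlap, and 6 of the 8 genes had both dTAG profiles above both controls, against 10.0% of all genes. Cyp3a11, whose 4 scores are given above, had the highest difference of all members, 0.72 (SE 0.48, limma), made up of 0.22 within replicate 1 and 1.22 within replicate 2. Much of it came from the low score in control 2. Cyp3a57, at the higher-scoring edge, had the lowest in the cluster, 0.37 (SE 0.31), with 0.37 and 0.38 within the replicate numbers. Near copies in this array, Cyp3a41a with Cyp3a41b and Cyp3a25 with Cyp3a59, had promoters identical at 97.0% and 95.7% of aligned bases, and how reads from such copies were placed is not given in the sources used here.

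Cyp2d followed with 3.17 and 2.96 in the controls and 3.41 and 3.45 in the dTAG profiles, a difference of 0.36, with 0.24 and 0.49 within the replicate numbers. All 8 genes had both dTAG profiles above both controls, against 10.0% of all genes. Cyp2d11 had the highest difference, 0.44 (SE 0.31), with scores of 3.72, 3.58, 4.07 and 4.13 in control 1, control 2, dTAG 1 and dTAG 2. Cyp2d26, the lowest, had 0.29 (SE 0.32), with scores of 3.12, 2.90, 3.23 and 3.35. All 83 positions between the first and last member lay above both controls in both dTAG profiles, against 10.9% of positions in the genome, in an unbroken run of 580 kb. Neighbouring positions are smoothed together, and 46 of 1960 such runs in the genome reached this length, this one included. The run at Cyp2d is wider than the cluster, by 20.4 kb on the Cyp2d22 side and 138 kb on the Cyp2d26 side. The 49 flanking genes had a median difference of -0.17, of the opposite sign.

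Cyp2c had -0.01 and -0.08 in the controls and 0.26 and 0.29 in the dTAG profiles, a difference of 0.32, with 0.27 and 0.37 within the replicate numbers. The groups did not overlap in 11 of 14 genes, all higher with dTAG, against 10.0% of all genes. The highest difference was at Cyp2c40, 0.64 (SE 0.32), with scores of -1.02, -1.28, -0.57 and -0.45, and the lowest at Cyp2c65, -0.05 (SE 0.34), with scores of 1.83, 2.18, 1.78 and 2.13. The 3 genes on the Cyp2c55 side, Cyp2c55, Cyp2c65 and Cyp2c66, were those whose groups overlapped. From before Cyp2c29 to beyond Cyp2c70, dTAG lay above control at every position over 1175 kb, a length that 6 of 1960 such runs in the genome reached, this one included, where the median run was 95 kb. Here the flanking genes also had a positive median difference, 0.26, as did those around Cyp3a, 0.24.

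The chromosome 7 cluster had 2.29 and 1.88 in the controls and 2.46 and 2.32 in the dTAG profiles, a difference of 0.31, with 0.18 and 0.44 within the replicate numbers. The groups were apart by 0.03, and in 6 of 13 genes both dTAG profiles lay above both controls, against 10.0% of all genes. The difference was highest at Cyp2b23, 0.59 (SE 0.42), which scored 1.84, 1.13, 2.36 and 1.79, and at Cyp2b19, an epoxygenase of keratinocytes, which scored 2.15, 1.52, 2.57 and 2.18. In Cyp2b23, dTAG 2 was below control 1, so its groups overlapped. It was lowest at Cyp2s1, 0.07 (SE 0.38). The non-P450 genes of the interval between Cyp2a4 and Cyp2b23 stood as high or higher: 0.60 for Nlrp9c, 0.64 for Nlrp4a, 0.62 for Nlrp9a and 0.64 for Vmn1r185. The difference here was thus shared by a stretch of the chromosome that holds other genes too.

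Cyp4f had 3.95 and 4.05 in the controls and 3.95 and 4.61 in the dTAG profiles, a difference of 0.28 that came from 1 profile: 0.01 within replicate 1, 0.56 within replicate 2, and -0.04 without dTAG 2. Within the cluster the sign changed along the chromosome. Cyp4f37 had the highest difference, 0.63 (SE 0.62), with 3.52, 3.96, 3.55 and 5.19. Cyp4f14, a leukotriene hydroxylase of liver, had the lowest, -0.33 (SE 0.46), with 4.67, 3.87, 4.32 and 3.56. Only Cyp4f39 had groups that did not overlap, with dTAG above control, as in 10.0% of all genes.

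Cyp4a/b/x and Cyp2j differed least. Cyp4a/b/x had 1.02 and 0.79 in the controls and 1.04 and 0.95 in the dTAG profiles, a difference of 0.09. Without control 2 the difference of Cyp4a/b/x was -0.02, where the median of all genes was -0.22. Its members ranged from -0.02 (SE 0.34) at Cyp4a12a to 0.17 (SE 0.37) at Cyp4x1. The groups were apart in 1 of 10 genes, Cyp4a31, with dTAG above control, a share like the 10.0% of all genes. Cyp2j had -3.47 and -3.39 in the controls and -3.59 and -3.45 in the dTAG profiles, a difference of -0.09, with -0.12 and -0.05 within the replicate numbers, and 0.039 when averaged over all positions of the cluster. Its genes went in different directions: 0.46 (SE 0.39) at Cyp2j12 and -0.39 (SE 0.31) at Cyp2j9. The 3 members whose dTAG profiles both lay below both controls, Cyp2j8, Cyp2j6 and Cyp2j9, stand next to each other here. Of all genes, 8.42% lay below in the same way.

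Genes inside the same range of timing levels had median differences near 0. For each cluster, all protein-coding genes with mean scores inside the range of its members were taken. They numbered between 1654 for Cyp2j and 12692 for the chromosome 7 cluster. Most of these ranges are wide, up to 4.69 score units in Cyp3a, so the genes are not matched to single members by level. Their median dTAG minus control difference was 0.01 for the range of Cyp2d, 0.01 for Cyp2c and for Cyp3a, and -0.04 for Cyp2j. The dTAG profiles exceeded both controls in 12.5% of the genes in the Cyp2d range, 13.5% in the Cyp2c range and 13.3% in the Cyp3a range. Leaving out 1 profile in turn, the cluster difference minus the median difference of all genes ranged from 0.40 to 0.73 for Cyp3a, from 0.14 to 0.66 for Cyp2d, from 0.17 to 0.51 for the chromosome 7 cluster and from 0.10 to 0.61 for Cyp2c. It took either sign for Cyp4f, -0.25 to 0.89, for Cyp4a/b/x, -0.06 to 0.32, and for Cyp2j, -0.37 to 0.26.

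None of the 9 members outside clusters had groups that did not overlap, where 10.0% of all genes lay above and 8.42% below. Their differences ran from -0.54 (SE 0.65) at Cyp2ab1 to 0.53 (SE 0.47) at Cyp2c23. Cyp2c23 had -0.26 within replicate 1 and 1.32 within replicate 2, and Cyp2w1 had 0.38 and -0.74. These genes changed in opposite directions in the replicate numbers. Cyp2e1 had 0.22 (SE 0.33), Cyp3a13 0.29 (SE 0.42), Cyp2r1 0.13 (SE 0.34), Cyp4f18 0.06 (SE 0.34), Cyp4v3 0.01 (SE 0.37), Cyp2w1 -0.18 (SE 0.69) and Cyp2u1 -0.26 (SE 0.74).

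RefSeq promoters (GRCm38.p6, 300 bases from 250 before to 50 after a start site) were matched for 63 of the 77 members, 70 promoters in all. The core YY1 motif GCCATNTT, read on both strands (its reverse complement is AANATGGC), was found in 3 member promoters, or 4.29%, against 6.41% of 21045 promoters. They are shown because they are the only member promoters with these letters; YY1 binding was not analysed here, and a match does not show that the site is used. Each is written 5′ to 3′ on the strand of its gene with the motif in capitals. The stretches lie at chr4:96507514-96507633 for Cyp2j8, chr7:26939381-26939500 for Cyp2a22 and chr7:27028965-27029084 for Cyp2a12, and their motifs begin 180, 58 and 69 bases before the start site.
Cyp2j8: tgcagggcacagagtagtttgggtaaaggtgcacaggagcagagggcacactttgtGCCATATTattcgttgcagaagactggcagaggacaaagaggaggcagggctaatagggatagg
Cyp2a22: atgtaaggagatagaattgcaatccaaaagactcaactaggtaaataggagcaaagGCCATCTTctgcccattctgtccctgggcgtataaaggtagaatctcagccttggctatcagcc
Cyp2a12: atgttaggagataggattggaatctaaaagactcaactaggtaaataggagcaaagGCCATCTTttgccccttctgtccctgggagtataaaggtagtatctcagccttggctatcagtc

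The Cyp2a22 and Cyp2a12 promoters are near copies, identical at 84.0% of aligned bases over the whole promoter. Cyp2a22 scored 1.83, 1.75, 2.09 and 2.31, Cyp2a12 scored 2.92, 2.94, 2.99 and 3.33, and Cyp2j8 scored -3.59, -3.58, -3.65 and -4.20 in control 1, control 2, dTAG 1 and dTAG 2. Both Cyp2a genes were thus higher with dTAG and Cyp2j8 lower, each without overlap. Of all genes, 10.0% lay above and 8.42% below in this way. Some matched members without the motif lay the same way, Cyp2a5 above and Cyp2j6 and Cyp2j9 below, while in others the groups overlapped. No matched promoter of the Cyp3a, Cyp2c or Cyp2d genes held the motif, which 6.41% of all promoters held. Whether the motif bears on timing was not tested. The member promoters were poor in CpG, the dinucleotide that marks most promoters of housekeeping genes: their median was 2 CpG and 48.5% GC, against 13 CpG and 56.7% GC over all promoters. The median of all promoters was reached by 3 of them, those of Cyp2r1, Cyp2s1 and Cyp4v3. Of these 3 genes Cyp2s1 is the highest of its cluster by timing score, whereas Cyp2r1 and Cyp4v3 scored below 1.

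Genes that work with P450 enzymes or regulate them were on both sides of 0. A list of 32 held the electron donors, haem genes, nuclear receptors and liver transcription factors, and the glucuronosyltransferases (Ugt) that conjugate P450 products. In 21 of them (65.6%, against 77.5% of all genes) all 4 scores were above 0 and in 11 (34.4%, against 17.9%) all were below 0. Of these 11, all but Ugt1a1, Foxa2 and Ahr were Ugt2 genes of chromosome 5, so the late share rests largely on that family. Alas1, the first enzyme of haem synthesis, was the highest at 5.07, 4.32, 4.89 and 3.96, and Ugt2a3 the lowest at -2.65, -4.03, -2.57 and -3.37. Por, the reductase that supplies electrons to these P450 enzymes, scored 4.04, 3.56, 4.63 and 3.05. limma called 0 of the 32 in either direction, with 0 at an unadjusted p under 0.05 with or without the block, their median difference was 0.05, and both dTAG profiles were above both controls in 2 and below in 0 (6.25% and 0%, against 10.0% and 8.42% of all genes). The highest difference was 0.67 at Ahr, the dioxin receptor, which was late at -1.98, -2.66, -1.78 and -1.53, and the lowest -0.36 at Nr1h4, the bile acid receptor. Among the 22 other P450 genes limma also called 0 (0 at an unadjusted p under 0.05, and 2 with the block), with 3 above (13.6%), 4 below (18.2%) and a median of 0.02; the extremes were Cyp7b1, an oxysterol hydroxylase, at 0.58 and Cyp39a1, a bile acid enzyme, at -0.78. The Serpina and Serpinb genes had 4 above (7.69%), 0 below and a median of -0.04. Among hepatocyte genes, the cell type in which most of these enzymes work, 4 of 5 scored above 0 in all 4 profiles (80%, where all genes had 77.5%), from Apoa1 at a mean of 4.86 to Serpina1a, the late one, at -2.90. Of 5 fibroblast genes, for feeder cells, 4 scored above 0 in all 4, the same share; since only timing was measured, neither list shows which cells were present.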

How the data were processed

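The deposited table holds a signed timing score for each 5 kb position and each of 4 profiles. Per the file headers and name, the authors smoothed the score with Loess and quantile normalized it on mm10. Bowtie2, SAMtools and bedtools are named in the submitters' processing notes, with versions not given in the sources used here. Per the labels' protocols, cells were labelled with BrdU for 2 h and DNA of 40000 cells per fraction was immunoprecipitated. Of 526745 positions 514245 had all 4 scores, and 4 with some were left out. Sorted scores of control 1 and dTAG 1 differed by at most 5.16e-05, and those of control 2 and dTAG 2 by at most 0.000114.

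Each gene of the RefSeq table (GRCm38.p6) took the score at the position nearest its midpoint; 108 protein-coding genes had none. The dTAG difference was tested 2-sided with limma 3.58.1 (lmFit and eBayes, R 4.3.3) with no other term, at a Benjamini-Hochberg adjusted p of 0.05 over all genes; the script was tested on simulated data. Clusters were compared by exact permutation with scipy 1.17.1 under Python 3.11.15. Promoters were aligned with Biopython 1.88, and plots drawn with matplotlib 3.10.9. Protein features had been planned and were not run. Sequence identity of promoters and the comparison with genes in the same range of levels were added afterwards.

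Alternatives were a replicate block, another variance model, 1 common distribution, windows of 50 kb, gene bodies, chromosome centring, all positions of a cluster and leaving out each profile. The members, lists and tests were chosen with earlier results of these data known. Named genes are the highest and lowest of each cluster by level and by difference, all members outside clusters, called members, 15 fixed genes of known function, and the extremes of the other lists; further members are named only to complete a count or an interval. Coordinates are 1-based on GRCm38.p6.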

Additional observations from a re-analysis of the deposited data

How the results depend on the processing

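The replicate numbers are not said to mark a shared day or culture. Same-numbered profiles deviated together (r = 0.64 over all genes, 0.69 over members). They also share 1 score distribution, which differs between the replicate numbers, so some of this correlation is built in and it cannot show a shared day or culture. The replicate block gave 0 limma calls among members, with a smallest adjusted p of 0.596 (0 also with 1 common distribution), and 2 with a trended robust variance added. limma called 0 members under the 6 settings without the block that kept all profiles and under each that left out 1 profile. Averaged over all positions from the first to the last member, the level was 2.87 for Cyp2d, -0.31 for Cyp2c, -3.14 for Cyp2j, 0.66 for Cyp4a/b/x and 1.69 for the chromosome 7 cluster, and the difference of Cyp2j turned to 0.039; this setting weights positions and not members equally. A gap of 0.25 in place of 0.5 gave 14 members above and 1 below, where all genes had 1.68% and 2.46%. Leaving out 1 profile in turn was a choice added after seeing the data. With no minimum gap it gave 43 to 53 members above and 5 to 13 below, where 13.3% to 52.7% of all genes lay below. With a gap of 0.5 it gave 0 to 16 above (0.618% to 6.34% of all genes) and 0 to 3 below (1.23% to 12.4%). The share of all genes above with no minimum gap was 37.3% when control 1 was left out, 15.2% for control 2, 17.2% for dTAG 1 and 46.1% for dTAG 2. The median difference of all genes was 0.19, -0.22, -0.28 and 0.20 in that order. The other 74 values under alternatives that kept all profiles stayed within the spread of the main value or on its side of the threshold. Depth is unknown, so its limit on these values could not be given.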
